A study of Mus musculus with 24 samples.

Results

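At day 3 of a protocol that directs mouse embryonic stem cells towards extraembryonic endoderm (XEN), AGO2 knockout cells held much less RNA of a set of endoderm genes than wild-type (WT) cells. The comparison takes 4 of the 24 samples of the series, chosen by their labels and not by any measured value. These are 2 libraries of AGO2 knockout (KO) cells and 2 libraries of WT cells, all at day 3, and all genes were examined. Both groups were E14 cells, an embryonic stem cell line of 129/Ola background, plated on gelatin in RPMI medium with serum, all-trans retinoic acid and activin A. The KO libraries are labelled AGO2 knock out cells, and the clone or clones behind them and the way the gene was disrupted are not stated in the labels. Whether the libraries of a group came from separate cultures is not stated either. The spread behind the p-values may therefore not be that between independent cultures. With the clone or clones unnamed, the genotype and any other difference between the KO and WT cells cannot be told apart.

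AGO2 is the Argonaute protein that holds microRNAs and guides them to messenger RNAs, most often through a short match in the 3′ untranslated region (UTR), and it is the mammalian Argonaute best known for cleaving its targets. Primitive endoderm is the layer of the blastocyst that gives rise to the visceral and parietal endoderm of the yolk sac, and XEN cells are its cultured counterpart. Its cells are specified downstream of FGF signalling by GATA factors, take up nutrients through endocytic receptors and lay down a basement membrane of laminin and type IV collagen.

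Polyadenylated RNA was counted per gene. Total counts were 27147835 and 10750570 in AGO2 KO libraries, against 10601574 and 13933318 in WT libraries, so the first KO library was the deepest. Levels are given as CPM (counts scaled to a common library size) for replicate 1 and then replicate 2. WT replicate 2 stood apart from the other 3 libraries. Over the 17694 genes tested, the KO libraries correlated with each other at 0.985 and with WT replicate 1 at 0.981. With WT replicate 2 they correlated at 0.965 and 0.961, and the WT libraries correlated with each other at 0.975. These are Pearson correlations of log2 CPM across genes, which are not independent replicates. Among the 11435 genes averaging 5 CPM or more, WT replicate 2 also differed from WT replicate 1 on whole chromosomes. The median difference on the log2 scale was 0.501 over the genes of chromosome 1 and -0.583 over those of chromosome 15. List counts are therefore also given without it. That fit tested 18492 genes and called fewer over all genes too, above all fewer higher ones, as given below. A drop in the calls of a list without WT replicate 2 is therefore not by itself a trait of that list.

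Ago2 itself (chromosome 15, 73095844 to 73184935, minus strand, mm10) was the first gene examined. It stood at 77.4 and 122 CPM in AGO2 KO libraries, against 307 and 186 CPM in WT libraries, and the groups did not overlap. This is a difference of -1.31 ± 0.29 in log2 (fold change ± SE, adjusted p = 0.0219, edgeR's quasi-likelihood test, Benjamini-Hochberg adjusted over 17694 genes, as for every adjusted p given here). The call was lost without AGO2 KO replicate 1 (-0.997) or WT replicate 1 (-0.899). Ago2 lies on chromosome 15, where WT replicate 2 was low as a whole. Since reads were counted over the gene as a whole, the part of the Ago2 transcript that KO cells still made cannot be read from them.

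Between the genotypes, 854 of 17694 genes tested passed an adjusted p of 0.05 (4.83%), with 324 higher in AGO2 KO (1.83%) and 530 lower (3.0%). At an unadjusted p below 0.05 there were 3656 genes, and the median log2 fold change of all genes was -0.0008. Single libraries moved these counts. Without WT replicate 2 the test called 271 genes, 52 higher and 219 lower, and without WT replicate 1 it called 2643, 1450 higher and 1193 lower. Calls that stood with each of the 4 libraries left out in turn numbered 152 (0.859%), of which 30 were higher and 122 lower. Fitting the 4 day 3 libraries alone left 35 calls (0.231%), 33 lower and 2 higher, and all 35 were among the 854. The 2 higher ones were Sema3e, which encodes a secreted semaphorin, and Bahcc1, which encodes a chromatin protein.

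**Figure D1:**
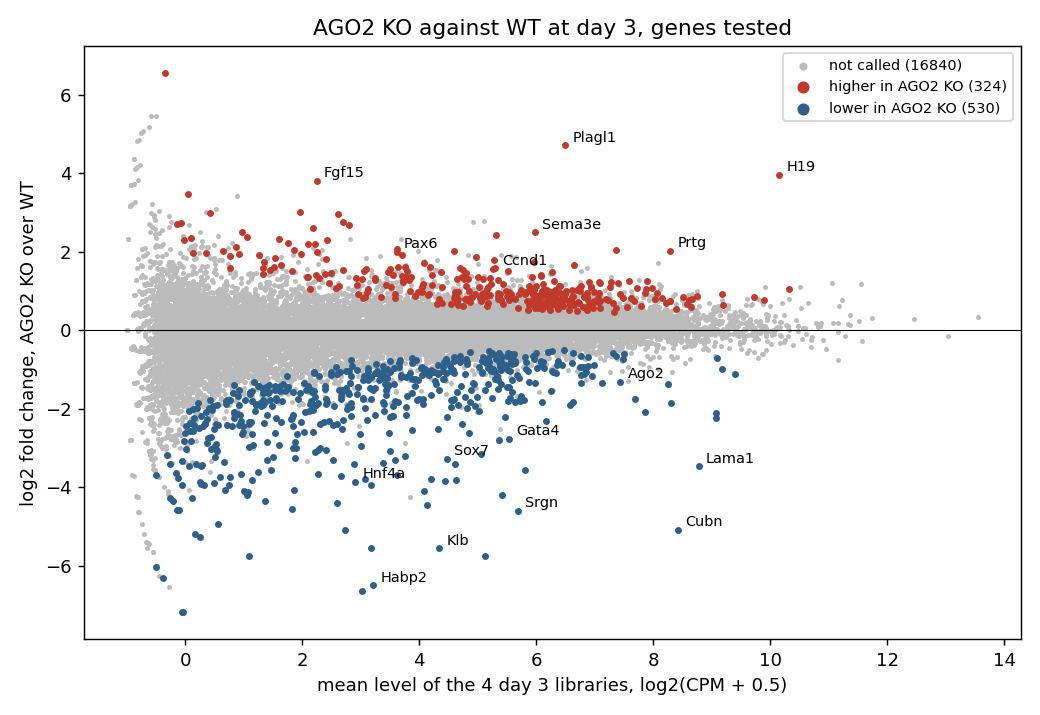
Log2 fold change of AGO2 KO over WT (vertical axis) against the mean level of the 4 day 3 libraries (log2 of CPM + 0.5, horizontal axis), 1 point per gene tested. The 324 genes called higher are red, the 530 called lower blue and the rest grey; the falls of Cubn, Klb and Habp2 exceed in size every labelled rise.

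Endoderm transcription factors were among the lower genes in AGO2 KO. Of 11 tested, 5 fell, 0 rose and 6 did not pass the test, with a median log2 fold change of -1.24 (4 fell without WT replicate 2). In RNA from a whole culture, fewer endoderm cells and less RNA per cell cannot be told apart.

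Hnf4a (chromosome 2, 163506808 to 163572910, plus strand), the nuclear receptor that drives serum protein genes in visceral endoderm and liver, had 0.902 and 0.872 CPM in AGO2 KO libraries, against 14.5 and 11.7 CPM in WT libraries (-3.86 ± 0.38, adjusted p = 4.19e-05). Gata4 (chromosome 14, 63198922 to 63271692, minus strand), a zinc finger factor of primitive endoderm, had 9.09 and 14.9 CPM in AGO2 KO libraries, against 85.2 and 74.6 CPM in WT libraries. Sox7 (chromosome 14, 63943673 to 63950732, plus strand), an HMG-box factor of the same lineage, had 3.38 and 4.94 CPM in AGO2 KO libraries, against 37.97 and 40.4 CPM in WT libraries. The groups were well separated for all 3 factors, and their calls stood with each library left out.

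Sox17 (chromosome 1, 4490931 to 4497354, minus strand), another HMG-box factor of endoderm, had 5.04 and 3.39 CPM in AGO2 KO libraries, against 11.2 and 20.6 CPM in WT libraries, a log2 fold change of -1.89 ± 0.38 (adjusted p = 0.0127). Its call was lost without AGO2 KO replicate 2 (-1.65) or WT replicate 2 (-1.34); the gene lies on chromosome 1, where WT replicate 2 was high as a whole. Foxq1, a forkhead factor of primitive endoderm, had 28.9 and 16.96 CPM in AGO2 KO libraries, against 63.9 and 46.02 CPM in WT libraries (-1.24 ± 0.29, adjusted p = 0.0271, lost without AGO2 KO replicate 2 (-0.91) or WT replicate 1 (-0.98)). Gata6, the GATA factor that acts earliest in primitive endoderm, did not pass the test. It had 13.5 and 37.9 CPM in AGO2 KO libraries, against 53.3 and 58.6 CPM in WT libraries (-1.15 ± 0.399, adjusted p = 0.123), so the KO libraries differed widely between themselves, and without AGO2 KO replicate 2 the gene was called (-2.04).

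The other endoderm factors did not pass the test. Foxa2, a forkhead pioneer factor of definitive and visceral endoderm, had 11.3 and 5.33 CPM in AGO2 KO libraries, against 9.15 and 8.398 CPM in WT libraries (-0.043 ± 0.37, adjusted p = 0.964). Foxa1 had 12.6 and 10.4 CPM in AGO2 KO libraries, against 10.2 and 12.7 CPM in WT libraries (0.0080 ± 0.22, adjusted p = 0.989). The groups overlapped for both genes. Hhex, a homeobox factor of anterior endoderm (-0.91 ± 0.29), Foxa3 (-1.54 ± 0.64) and Gata5 (-0.69 ± 0.55) were the remaining ones.

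**Figure D2:**
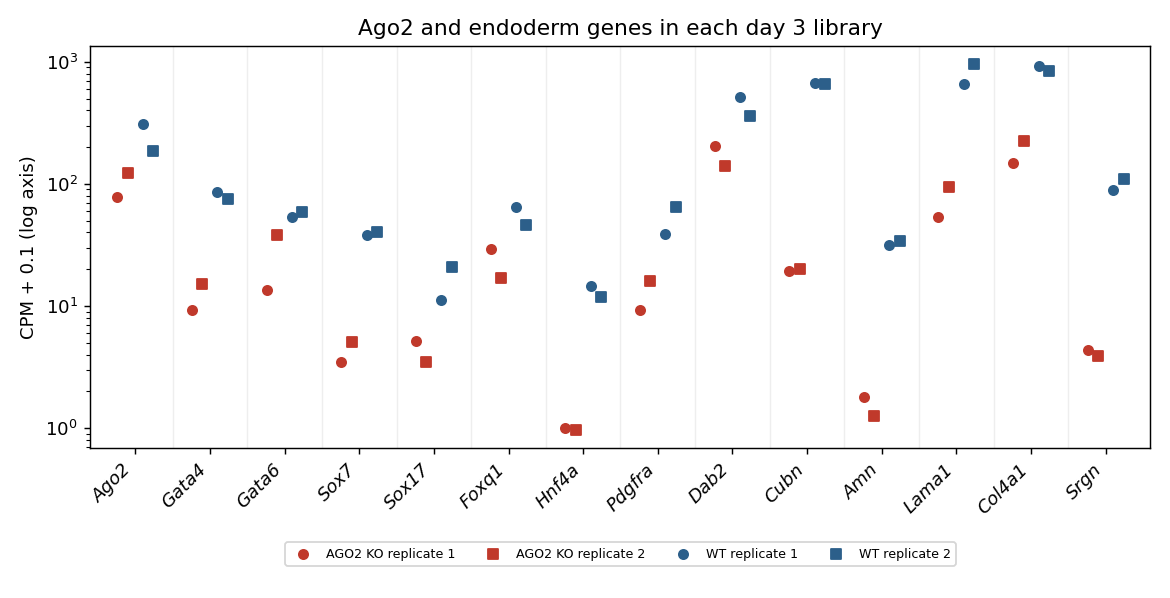
CPM + 0.1 (log axis) of Ago2 and 13 endoderm genes in each day 3 library, AGO2 KO in red and WT in blue, circles for replicate 1 and squares for replicate 2. Both KO libraries lie below both WT libraries for every gene shown, by the widest margin for Cubn, Amn and Srgn.

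The wider list of primitive endoderm and XEN markers had 12 of 19 members lower and 0 higher, with a median of -1.85 (10 lower without WT replicate 2, 7 in the fit of the 4 libraries alone). It shares Gata4, Gata6, Sox7, Sox17 and Foxq1 with the transcription factors above. Cubn, Amn and Col4a2 are among the members it shares with the endocytic and basement membrane lists below. The counts of these lists are therefore not separate results. Pdgfra, the platelet-derived growth factor receptor that marks primitive endoderm, had 9.24 and 15.99 CPM in AGO2 KO libraries, against 38.9 and 64.05 CPM in WT libraries (-2.06 ± 0.36, adjusted p = 0.00628, lost without AGO2 KO replicate 1 (-1.67) or WT replicate 2 (-1.63)). Srgn (chromosome 10, 62493833 to 62527451, minus strand), which encodes the secreted proteoglycan serglycin, had 4.25 and 3.78 CPM in AGO2 KO libraries, against 88.3 and 109 CPM in WT libraries (-4.601 ± 0.26, adjusted p = 2.78e-07). The WT level exceeded the KO level in every pair of libraries for both genes.

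Endocytic uptake is the main task of the visceral endoderm, and 4 of 10 tested receptors and adaptors fell, with 0 higher and 6 not called (4 fell without WT replicate 2). Cubn (chromosome 2, 13276338 to 13491813, minus strand) encodes cubilin, the large receptor that binds vitamin B12 with intrinsic factor and many other ligands. It stood at 19.1 and 19.97 CPM in AGO2 KO libraries, against 666 and 659.8 CPM in WT libraries, a log2 fold change of -5.09 ± 0.37 (adjusted p = 6.33e-06). Amn (chromosome 12, 111271095 to 111276426, plus strand) encodes amnionless, which anchors cubilin in the membrane, and it stood at 1.69 and 1.16 CPM in AGO2 KO libraries, against 31.2 and 34.2 CPM in WT libraries (-4.45 ± 0.35, adjusted p = 6.33e-06). Both partners of the cubilin receptor thus fell, with close agreement between replicates.

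Dab2, the adaptor that links such receptors to clathrin, had 203 and 139.6 CPM in AGO2 KO libraries, against 519 and 361 CPM in WT libraries (-1.36 ± 0.22, adjusted p = 0.00303). Lrpap1, the chaperone that escorts megalin and related receptors, had 98.7 and 77.6 CPM in AGO2 KO libraries, against 356 and 395 CPM in WT libraries (-2.09 ± 0.18, adjusted p = 1.26e-05). Lrp2, which encodes megalin, the partner receptor of cubilin, had 403 and 425 CPM in AGO2 KO libraries, against 677 and 632 CPM in WT libraries and did not pass the test (-0.66 ± 0.26, adjusted p = 0.165). Vldlr, a lipoprotein receptor (-0.86 ± 0.55), and Tfrc, the transferrin receptor (-0.17 ± 0.29), did not pass it either.

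Basement membrane genes, which parietal endoderm expresses strongly, had 6 of 19 tested members lower and 0 higher, with a median of -0.46 (5 lower without WT replicate 2). Lama1 (chromosome 17, 67697259 to 67822647, plus strand), the laminin α1 chain, had 53.1 and 93.4 CPM in AGO2 KO libraries, against 653 and 955 CPM in WT libraries (-3.46 ± 0.32, adjusted p = 3.40e-05). Col4a1, a chain of type IV collagen, had 149 and 226 CPM in AGO2 KO libraries, against 927 and 846 CPM in WT libraries (-2.24 ± 0.28, adjusted p = 5.54e-04). Its partner chain Col4a2, the neighbouring gene on chromosome 8, had a log2 fold change of -1.85 ± 0.24 (adjusted p = 5.89e-04).

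The collagen-modifying enzymes P4ha2 (-1.07 ± 0.15) and Plod2 (-1.12 ± 0.25, lost without AGO2 KO replicate 1 (-0.81) or WT replicate 2 (-1.01)) and Pth1r, the parathyroid hormone receptor of parietal endoderm (-1.96 ± 0.25), made up the rest of the 6. The partner chains of laminin were not called. Lamb1 had 558 and 646 CPM in AGO2 KO libraries, against 873 and 807 CPM in WT libraries (-0.48 ± 0.15, adjusted p = 0.0848), and Lamc1 was at -0.71 ± 0.21 (adjusted p = 0.0666). Sparc, a matrix protein of parietal endoderm, was at -0.604 ± 0.204 (adjusted p = 0.108).

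Lysosomal genes had 7 of 22 tested members lower and 1 higher, with a median of -0.34 (6 lower and 0 higher without WT replicate 2). Ctsh, a cathepsin, had 3.49 and 2.81 CPM in AGO2 KO libraries, against 41.3 and 49.5 CPM in WT libraries (-3.82 ± 0.37, adjusted p = 5.54e-05). Ctsl, a cathepsin abundant in yolk sac endoderm, had 212 and 195 CPM in AGO2 KO libraries, against 768 and 983 CPM in WT libraries (-2.11 ± 0.198, adjusted p = 3.39e-05). Ctsc (-2.21 ± 0.26) and Lgmn (-1.74 ± 0.16), which encode further lysosomal proteases, fell as well.

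Neu1 (-1.001 ± 0.15), Ctsz (-1.14 ± 0.18) and Ctsa (-0.88 ± 0.19, lost without AGO2 KO replicate 2 (-0.67) or WT replicate 2 (-0.83)) completed the lower genes. The higher one was Psap, the precursor of the saposins (0.81 ± 0.19, adjusted p = 0.0256, lost without AGO2 KO replicate 1 (0.83), AGO2 KO replicate 2 (0.83) or WT replicate 2 (0.51)), which lies in a part of chromosome 10 described at the end. Lamp1, Lamp2 and Cd63, membrane proteins of the lysosome and its vesicles, were not called.

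Among transporters and peptidases of absorptive epithelia, 9 of 26 tested members fell and 0 rose (7 fell without WT replicate 2, 6 of them among the 9). Aqp8, a water channel, had 0.376 and 0.291 CPM in AGO2 KO libraries, against 12.5 and 11.5 CPM in WT libraries (-5.08 ± 0.49, adjusted p = 6.24e-05). Dpp4, a membrane peptidase, had 7.21 and 5.82 CPM in AGO2 KO libraries, against 37.05 and 80.4 CPM in WT libraries (-3.15 ± 0.38, adjusted p = 4.46e-04). Slc39a8, a zinc and manganese importer (-2.16 ± 0.26), and Pdzk1, a scaffold of apical transporters (-3.39 ± 0.49), also fell in every left-out fit.

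Of 15 yolk sac serum protein and apolipoprotein genes tested, 3 fell and 0 rose. Without WT replicate 2, 3 fell as well, but only 2 of these were among the first 3. Mttp, which loads lipid onto apolipoprotein B, had 11.99 and 13.3 CPM in AGO2 KO libraries, against 59.2 and 37.1 CPM in WT libraries (-1.93 ± 0.28, adjusted p = 0.00153). Ttr, which encodes transthyretin, had 0.752 and 0.291 CPM in AGO2 KO libraries, against 7.76 and 3.82 CPM in WT libraries (-3.26 ± 0.83, adjusted p = 0.0472), and leaving out any 1 of the 4 libraries ended its call (-4.25 to -2.67). Apoa4, an apolipoprotein, rested on 3 counts in the KO libraries and 33 in the WT libraries together, a count ratio of 15.9 with WT higher (95% exact interval 5.003 to 81.3, counting error only), and its call was lost without AGO2 KO replicate 1 (-3.69), AGO2 KO replicate 2 (-4.04) or WT replicate 1 (-2.96).

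Coagulation and protease inhibitor genes had 4 of 22 members lower and 0 higher (3 lower without WT replicate 2), led by Habp2 (chromosome 19, 56287137 to 56320822, plus strand), a secreted serine protease that binds hyaluronan. Habp2 had 0.225 and 0.0969 CPM in AGO2 KO libraries, against 14.5 and 20.2 CPM in WT libraries (-6.497 ± 0.504, adjusted p = 6.33e-06). The KO libraries were close to having no Habp2 reads. Serpinb6a (-0.97 ± 0.16, lost without AGO2 KO replicate 1 (-0.82)), Serpine2 (-0.78 ± 0.19, lost with any 1 library left out) and Spink1 (-2.92 ± 0.61, lost without AGO2 KO replicate 1 (-2.87), AGO2 KO replicate 2 (-2.92) or WT replicate 1 (-1.51)), which encode protease inhibitors, were the other three, and Serpinb6a belongs to a family of similar genes among which reads can be shared.

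Further lower genes are given by size of fall and p-value. Klb (chromosome 5, 65348314 to 65384007, plus strand) encodes β-klotho, the co-receptor of the endocrine FGFs, and had 0.939 and 0.582 CPM in AGO2 KO libraries, against 33.5 and 43.8 CPM in WT libraries (-5.55 ± 0.34, adjusted p = 5.23e-07). Tfec, a relative of the lysosomal regulator TFEB, had 0.338 and 0.388 CPM in AGO2 KO libraries, against 13.4 and 20.1 CPM in WT libraries (-5.54 ± 0.48, adjusted p = 1.26e-05). Tcf23, a bHLH factor, had 0.0376 and 0.388 CPM in AGO2 KO libraries, against 14.2 and 15.7 CPM in WT libraries (-6.65 ± 0.55, adjusted p = 1.04e-05). In each case the KO libraries were at or below 1 CPM.

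Nxf7, an X-linked member of the RNA export factor family, had 4.21 and 4.56 CPM in AGO2 KO libraries, against 66.6 and 93.5 CPM in WT libraries (-4.1999 ± 0.26, adjusted p = 5.23e-07). Pga5, a pepsinogen gene (-5.75 ± 0.53), Nostrin, a regulator of nitric oxide synthase trafficking (-3.85 ± 0.32), Adora1, an adenosine receptor on chromosome 1 (-3.95 ± 0.38), and Dram1, a lysosomal membrane protein gene (-3.79 ± 0.27), fell with each library left out. Serpinb6c, of the same serpin family as Serpinb6a and uncertain for the same reason, fell by 3.296 ± 0.25 on the log2 scale. Muc13, an epithelial mucin, fell by 4.39 ± 0.74 (adjusted p = 0.00525, lost without AGO2 KO replicate 1 (-3.14)).

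The promoters of strongly lower genes were read for words bound by the factors that fell. The 300 bases from 250 before to 50 after the start are shown for 3 of them, because they span the cases found, and come from RefSeq (GRCm38.p6); capitals mark a GATA word (AGATAA, or the same with T first, G last or both, on either strand).
Habp2, chr19:56287662-56287961, plus strand: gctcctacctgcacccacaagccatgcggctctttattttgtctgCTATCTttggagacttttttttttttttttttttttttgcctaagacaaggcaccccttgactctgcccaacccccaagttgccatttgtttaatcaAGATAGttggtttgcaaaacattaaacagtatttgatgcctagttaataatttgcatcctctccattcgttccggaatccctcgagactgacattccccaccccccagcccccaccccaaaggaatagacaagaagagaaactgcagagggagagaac
Klb, chr5:65348161-65348460, plus strand: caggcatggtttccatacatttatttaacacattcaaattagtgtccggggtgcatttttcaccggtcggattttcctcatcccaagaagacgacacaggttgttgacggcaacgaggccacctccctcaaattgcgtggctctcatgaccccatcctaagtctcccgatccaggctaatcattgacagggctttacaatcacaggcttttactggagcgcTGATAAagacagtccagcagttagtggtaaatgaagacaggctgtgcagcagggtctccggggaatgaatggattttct
Cubn, chr2:13491827-13492126, minus strand: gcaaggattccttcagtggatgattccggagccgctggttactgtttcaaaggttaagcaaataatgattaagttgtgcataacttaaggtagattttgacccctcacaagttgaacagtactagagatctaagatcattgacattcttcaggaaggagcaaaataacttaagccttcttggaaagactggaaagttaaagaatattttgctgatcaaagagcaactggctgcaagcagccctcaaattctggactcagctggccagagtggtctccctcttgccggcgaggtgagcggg
The Habp2 window held 2 GATA words, the Klb window 1 and the Cubn window 0. These 3 do not show how often each case occurred among the 10 lower genes of smallest p that had a promoter. Of the others, Nxf7 held 1 word, and Srgn, Dram1, Serpinb6c, Amn, Nostrin and a clone-named gene held 0. A promoter was found for 375 of the 530 lower genes, 249 of the 324 higher genes and 12014 of all 17694 tested. GATA words stood in 25.1% of the lower genes' promoters, 24.1% of the higher genes' and 22.5% of all. HNF4 words (CAAAGTCCA, or alternatively the word CAAAGGTCA, either strand) stood in 1.87% of the lower genes' promoters, 1.61% of the higher genes' and 0.874% of all. Among calls made without WT replicate 2, GATA words stood in 27.8% of 158 lower and 27.03% of 37 higher promoters, and HNF4 words in 3.797% and 0%, 6 and 0 promoters. A match is a description of letters, not a binding site.

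**Figure D3:**
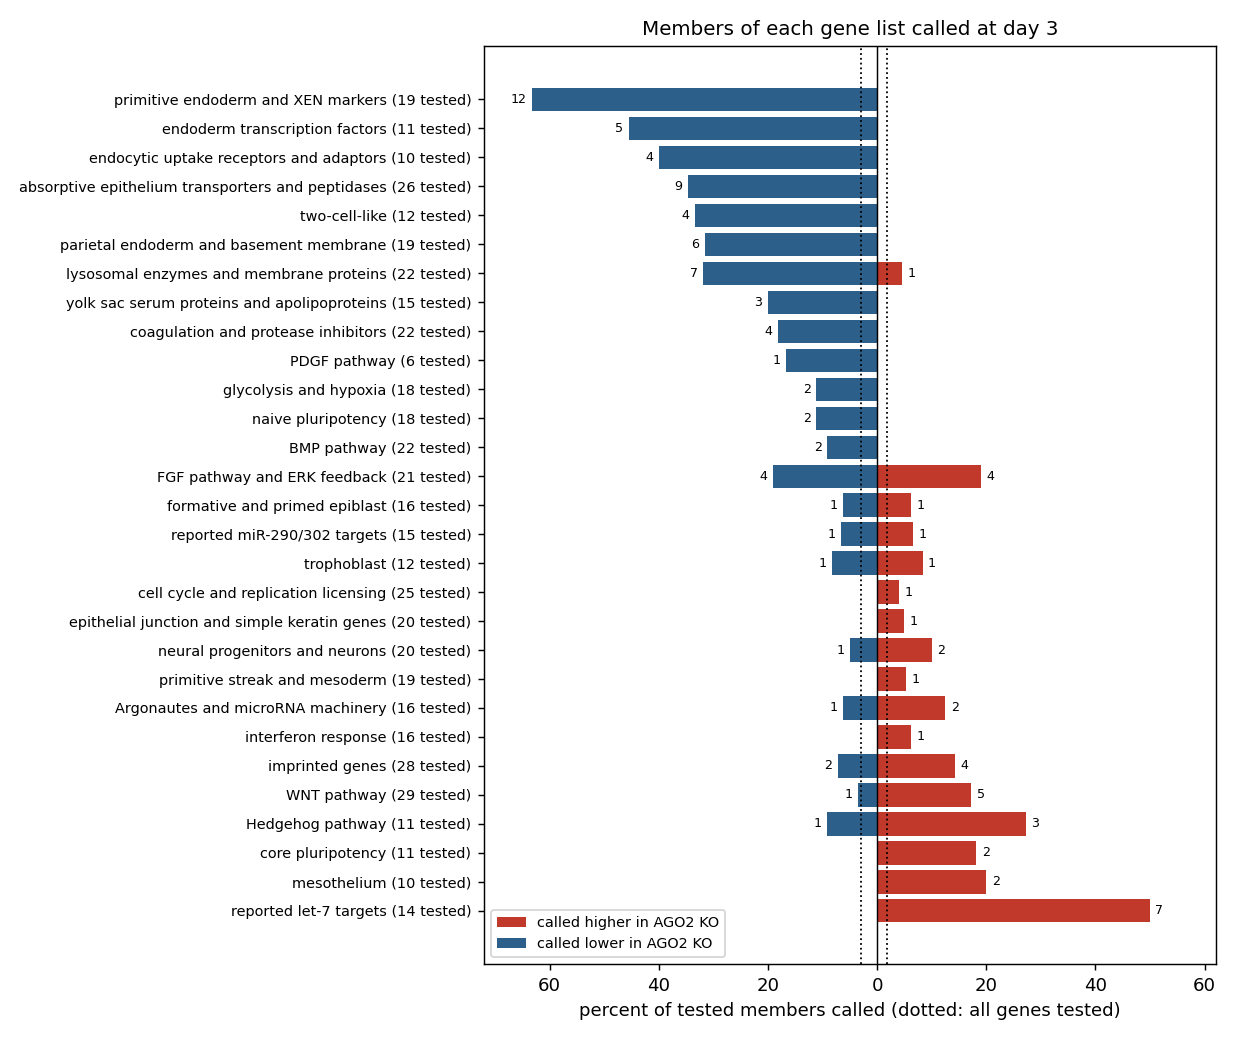
Percent of the tested members of each gene list called higher (right, red) or lower (left, blue) in AGO2 KO, with the number of members at the bar's end and dotted lines at the share of all genes tested (1.83% higher, 3.0% lower). Of 36 lists, the 29 with at least 1 member called are shown, from the primitive endoderm and XEN markers (12 of 19 lower) to the reported let-7 targets (7 of 14 higher).

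Among the higher genes, the imprinted pair Plagl1 and H19 had the largest changes. Plagl1 (chromosome 10, 13060504 to 13131694, plus strand), a zinc finger gene expressed from the paternal allele, had 133 and 211 CPM in AGO2 KO libraries, against 12.1 and 1.57 CPM in WT libraries (4.71 ± 0.69, adjusted p = 0.00337). H19 (chromosome 7, 142575529 to 142578143, minus strand), a maternally expressed non-coding RNA, had 1447 and 2835 CPM in AGO2 KO libraries, against 233 and 41.9 CPM in WT libraries (3.97 ± 0.71, adjusted p = 0.0103, lost without AGO2 KO replicate 2 (3.43)). The WT libraries differed from each other several-fold for both genes, yet both lay below both KO libraries.

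Igf2, the growth factor gene next to H19 that is expressed from the paternal allele, went the other way. It had 330.2 and 452 CPM in AGO2 KO libraries, against 675 and 862 CPM in WT libraries (-0.97 ± 0.25, adjusted p = 0.0392, lost without AGO2 KO replicate 1 (-0.75), AGO2 KO replicate 2 (-1.204) or WT replicate 2 (-0.76)). Of 28 imprinted genes tested, 4 rose and 2 fell (3 and 0 without WT replicate 2). Sgce (1.28 ± 0.24) and Snrpn (0.66 ± 0.15, lost without AGO2 KO replicate 1 (0.64), AGO2 KO replicate 2 (0.72) or WT replicate 2 (0.66)) were the other higher ones and Grb10, an adaptor that restrains insulin signalling (-0.72 ± 0.19, lost without AGO2 KO replicate 1 (-0.83), AGO2 KO replicate 2 (-0.59) or WT replicate 2 (-0.46)), the other lower one.

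The FGF pathway had 4 members higher (Fgf8, Fgf15, Spred1 and Il17rd) and 4 lower (Fgfr3, Fgfr4, Klb and Etv4) of 21 tested. Without WT replicate 2, 1 rose and 3 fell. Among ligands, Fgf15 (chromosome 7, 144896531 to 144900953, plus strand) had 11.1 and 4.65 CPM in AGO2 KO libraries, against 1.201 and 0.0683 CPM in WT libraries (3.82 ± 0.66, adjusted p = 0.00533). Fgf8, a ligand of the gastrulating embryo, had 16.9 and 2.81 CPM in AGO2 KO libraries, against 2.12 and 0.615 CPM in WT libraries (2.96 ± 0.77, adjusted p = 0.0479, lost without AGO2 KO replicate 1 (1.12) or WT replicate 2 (2.296)). Fgf17, a relative of Fgf8 outside the list, had 15.5 and 5.23 CPM in AGO2 KO libraries, against 2.12 and 1.09 CPM in WT libraries (2.77 ± 0.51, adjusted p = 0.008098, lost without AGO2 KO replicate 1 (1.76) or WT replicate 2 (2.36)). All 3 ligands were low in WT libraries, and AGO2 KO replicate 1 was higher than AGO2 KO replicate 2 for each.

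Among receptors, Fgfr4 had 2.22 and 3.199 CPM in AGO2 KO libraries, against 12.2 and 7.92 CPM in WT libraries (-1.93 ± 0.304, adjusted p = 0.00251), and Fgfr3 fell by 1.09 ± 0.25 (lost without AGO2 KO replicate 1 (-1.32), AGO2 KO replicate 2 (-0.898) or WT replicate 2 (-1.13)), beside the co-receptor gene Klb. Etv4, an ETS factor switched on by ERK signalling, had 9.69 and 11.05 CPM in AGO2 KO libraries, against 27.2 and 43.8 CPM in WT libraries (-1.79 ± 0.26, adjusted p = 0.00138). The feedback inhibitors Il17rd (1.07 ± 0.23, lost without AGO2 KO replicate 1 (1.02) or WT replicate 2 (1.06)) and Spred1 (0.57 ± 0.14, lost without AGO2 KO replicate 1 (0.64), AGO2 KO replicate 2 (0.53) or WT replicate 2 (0.502)) rose, whereas Dusp6, Spry2 and Spry4, also read as markers of ERK activity, were not called.

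Hedgehog pathway genes had 3 of 11 members higher and 1 lower (1 and 1 without WT replicate 2). Ptch1, the Hedgehog receptor and a transcriptional target of the pathway, had 193 and 109 CPM in AGO2 KO libraries, against 48.04 and 47.7 CPM in WT libraries (1.66 ± 0.297, adjusted p = 0.00685, lost without WT replicate 2 (1.68)). Gli1, the effector that is itself a target, had 22.02 and 10.4 CPM in AGO2 KO libraries, against 3.97 and 7.101 CPM in WT libraries (1.56 ± 0.33, adjusted p = 0.0166, lost without AGO2 KO replicate 1 (0.898)). Gli3, whose processed form is the main repressor of the pathway, had a log2 fold change of 1.11 ± 0.29 (adjusted p = 0.0429, lost without AGO2 KO replicate 2 (0.75) or WT replicate 2 (0.77)). The ligand gene Ihh, which visceral endoderm expresses, was the lower member, at 0.376 and 0.291 CPM in AGO2 KO libraries, against 6.56 and 5.33 CPM in WT libraries (-4.07 ± 0.52, adjusted p = 5.65e-04).

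The other 7 Hedgehog members tested did not pass the test, among them Gli2 (0.61 ± 0.18), the transducer Smo (0.52 ± 0.14), the co-receptors Cdon (0.33 ± 0.21), Boc (0.022 ± 0.23) and Gas1 (-1.03 ± 0.44) and Hhip (0.24 ± 0.32), a pathway target that binds the ligands. In the WNT list, 5 of 29 tested members rose and 1 fell. Without WT replicate 2 none of the 5 was called, while Notum, a secreted WNT inhibitor not called with it, rose and the same member fell. The higher ones were Wnt3, a ligand (1.93 ± 0.49, lost without AGO2 KO replicate 1 (2.21), AGO2 KO replicate 2 (1.69) or WT replicate 2 (1.23)), Fzd2, a receptor (1.02 ± 0.27, lost without AGO2 KO replicate 1 (0.97), AGO2 KO replicate 2 (1.11) or WT replicate 2 (0.799)), Sfrp2, a secreted antagonist (1.09 ± 0.298, lost without AGO2 KO replicate 1 (0.29) or WT replicate 2 (0.95)), Tcf7 (0.85 ± 0.198, lost without AGO2 KO replicate 1 (0.81) or WT replicate 2 (0.53)) and Sp5 (1.99 ± 0.49, lost without AGO2 KO replicate 1 (1.29) or WT replicate 2 (1.39)), both known as WNT-responsive. Dkk1, a secreted WNT inhibitor, had 11.2 and 14.4 CPM in AGO2 KO libraries, against 45.9 and 36.3 CPM in WT libraries (-1.69 ± 0.21, adjusted p = 3.88e-04), and was called with each library left out.

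Further higher genes are given by size of change and p-value. Sema3e (chromosome 5, 14025276 to 14256689, plus strand) had 110.03 and 103 CPM in AGO2 KO libraries, against 23.004 and 14.8 CPM in WT libraries (2.501 ± 0.24, adjusted p = 3.65e-05). Pax6, a paired-box factor of the neural tube and eye, had 21.9 and 15.5 CPM in AGO2 KO libraries, against 5.45 and 4.03 CPM in WT libraries (2.001 ± 0.27, adjusted p = 8.44e-04). Ina, a neuronal intermediate filament gene, had 21.8 and 16.1 CPM in AGO2 KO libraries, against 4.07 and 4.98 CPM in WT libraries (2.06 ± 0.23, adjusted p = 1.48e-04). The groups were apart for all 3 and each call stood with every library left out.

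Dmbx1, a homeobox gene of the midbrain, had 13.3 and 8.82 CPM in AGO2 KO libraries, against 2.96 and 0.683 CPM in WT libraries (2.69 ± 0.48, adjusted p = 0.00628). Bahcc1 had 59.7 and 59.8 CPM in AGO2 KO libraries, against 16.4 and 18.2 CPM in WT libraries (1.79 ± 0.19, adjusted p = 1.17e-04). Of 20 neural genes tested, 2 rose (Pax6 and Dmbx1) and 1 fell (Hesx1, -3.57 ± 0.58, lost without AGO2 KO replicate 1 (-2.81)), all 3 also without WT replicate 2, and the progenitor gene Sox1 and the neuronal gene Tubb3 were among the 17 that did not pass the test.

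Prtg, a transmembrane protein of the early embryo, had 461 and 542 CPM in AGO2 KO libraries, against 166 and 82.2 CPM in WT libraries (2.02 ± 0.31, adjusted p = 0.00247). Sulf1, a sulfatase that edits heparan sulfate and so the FGF and WNT co-receptors, had 260.1 and 269.7 CPM in AGO2 KO libraries, against 81.9 and 47.5 CPM in WT libraries (2.04 ± 0.27, adjusted p = 8.05e-04); it rose although it lies on chromosome 1, where KO libraries were lower than WT replicate 2 as a whole. Prom1, a membrane glycoprotein of progenitor cells, had 72.3 and 59.4 CPM in AGO2 KO libraries, against 18.3 and 6.55 CPM in WT libraries (2.43 ± 0.37, adjusted p = 0.00258). For Prtg, Sulf1 and Prom1, WT replicate 2 was the lowest library.

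Ccnd1 (chromosome 7, 144929931 to 144939925, minus strand), the cyclin that drives entry into the cell cycle, had 49.6 and 66.3 CPM in AGO2 KO libraries, against 24.9 and 13.998 CPM in WT libraries (1.58 ± 0.22, adjusted p = 9.38e-04). It was the only one of 25 cell cycle and replication genes called, also without WT replicate 2. Nr6a1, an orphan nuclear receptor of early embryos (1.199 ± 0.17), and Aim2, a sensor of cytosolic DNA (1.58 ± 0.23), were called with each library left out. Actn3, an actinin gene (2.01 ± 0.39, lost without AGO2 KO replicate 1 (1.73)), Ano1, a chloride channel gene (1.93 ± 0.44, lost without AGO2 KO replicate 1 (1.19) or WT replicate 2 (1.42)), and Psd3, an exchange factor gene (1.88 ± 0.35, lost without WT replicate 2 (1.84)), completed the 15 largest rises with Plagl1, H19, Fgf8, Fgf17, Dmbx1, Sema3e, Prom1, Ina, Sulf1, Prtg, Pax6 and Bahcc1.

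**Figure D4:**
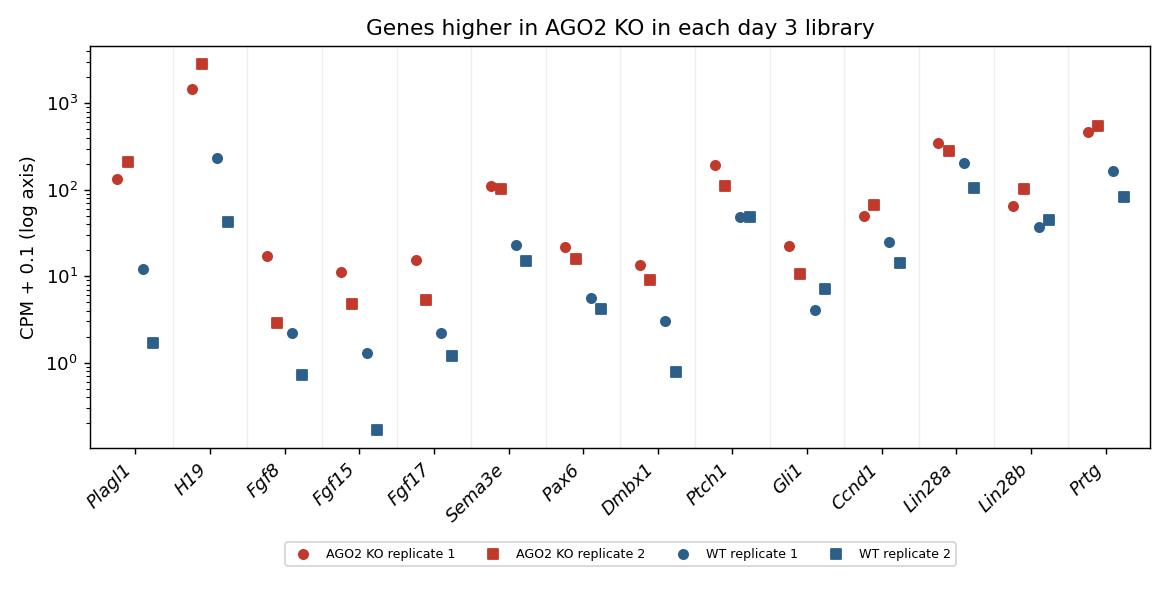
CPM + 0.1 (log axis) of 14 genes called higher in each day 3 library, AGO2 KO in red and WT in blue, circles for replicate 1 and squares for replicate 2. Both KO libraries lie above both WT libraries for every gene shown, and WT replicate 2 is the lowest library for every gene shown except Gli1 and Lin28b.

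Of 16 Argonaute and microRNA machinery genes tested, 2 rose and 1, Ago2 itself, fell (0 rose and 1 fell without WT replicate 2). Ago1, another Argonaute that carries microRNAs, had 171 and 166 CPM in AGO2 KO libraries, against 106 and 85.01 CPM in WT libraries (0.82 ± 0.2003, adjusted p = 0.0315, lost without AGO2 KO replicate 1 (0.81), AGO2 KO replicate 2 (0.85) or WT replicate 2 (0.69)). Dicer1, the enzyme that makes mature microRNAs, had 214 and 238 CPM in AGO2 KO libraries, against 165 and 132 CPM in WT libraries (0.61 ± 0.16, adjusted p = 0.0428, lost without AGO2 KO replicate 1 (0.699), AGO2 KO replicate 2 (0.55) or WT replicate 2 (0.48)). Ago3 and Ago4, the remaining Argonaute genes, were not called.

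MicroRNAs were not measured in these libraries. Reported targets of let-7, the microRNA family that accumulates as stem cells differentiate, had 7 of 14 tested members higher and 0 lower, with a median of 0.63. Without WT replicate 2 only Lin28b and Ccnd1 of the 14 stayed called, and Ccnd1 held 0 let-7 sites in the UTR examined. The family is shown by its seed in capitals (bases 2 to 8, which pair with the target), together with 2 members of the miR-290 and miR-302 clusters of stem cells, whose seed is shared between them; the mature sequences are from RefSeq.
mmu-let-7a-5p: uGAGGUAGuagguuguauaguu
mmu-let-7g-5p: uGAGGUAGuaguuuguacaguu
mmu-miR-294-3p: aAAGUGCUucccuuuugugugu
mmu-miR-302b-3p: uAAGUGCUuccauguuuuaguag
The matching site in a 3′ UTR reads CTACCTC for let-7 and AGCACTT for miR-294, both 7 bases. The stretch around the most 5′ or only such site is shown for 4 higher let-7 targets (GRCm38, site in capitals).
Lin28a, chr4:134005189-134005216, minus strand: ggagtgcacagcctgttgaaCTACCTCa
Lin28b, chr10:45381022-45381049, minus strand: ccttcacccgggcgggaagtCTACCTCa
Trim71, chr9:114512472-114512499, minus strand: agtacaacattgcctaagtcCTACCTCa
Arid3b, chr9:57790361-57790388, minus strand: gtttatatttcaataaagctCTACCTCt

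Lin28a and Lin28b encode RNA-binding proteins that block let-7 maturation and are themselves let-7 targets. Lin28a had 350.2 and 281 CPM in AGO2 KO libraries, against 202 and 105 CPM in WT libraries (1.04 ± 0.24, adjusted p = 0.0226, lost without AGO2 KO replicate 1 (0.89) or WT replicate 2 (0.67)). Lin28b had 64.9 and 101 CPM in AGO2 KO libraries, against 36.8 and 44.04 CPM in WT libraries (1.03 ± 0.21, adjusted p = 0.0146, lost without AGO2 KO replicate 2 (0.696)). The 2 genes were higher in both KO libraries than in both WT libraries.

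Trim71, a ubiquitin ligase of stem cells and the classic let-7 target first found as lin-41 in worms, had 304 and 234 CPM in AGO2 KO libraries, against 179.7 and 170.3 CPM in WT libraries (0.62 ± 0.14, adjusted p = 0.0212, lost without AGO2 KO replicate 1 (0.44) or WT replicate 2 (0.61)). Arid3b, a DNA-binding protein, had 172 and 133 CPM in AGO2 KO libraries, against 91.1 and 68.3 CPM in WT libraries (0.94 ± 0.17, adjusted p = 0.00628, lost without AGO2 KO replicate 1 (0.76) or WT replicate 2 (0.77)). Igf2bp1, an RNA-binding protein of fetal cells, had 637 and 791 CPM in AGO2 KO libraries, against 485 and 430.4 CPM in WT libraries (0.64 ± 0.15, adjusted p = 0.0298, lost without AGO2 KO replicate 2 (0.49) or WT replicate 2 (0.59)). Hmga2, a chromatin protein with 4 let-7 sites in its 3′ UTR, had 244 and 206 CPM in AGO2 KO libraries, against 162 and 124 CPM in WT libraries and did not pass the test (0.65 ± 0.24, adjusted p = 0.1405).

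The other listed let-7 targets did not pass the test, from Arid3a (0.88 ± 0.25) and Hmga1 (0.63 ± 0.23) to Ccnd2 (-0.095 ± 0.26) and Mycn (-0.16 ± 0.23), and 4 of the 14 listed targets (Ccnd1 and Dicer1, called higher, and Ccnd2 and Mycn, not called) held no let-7 word in the UTR examined. Across all genes with a 3′ UTR, 14.8% of 317 higher genes and 7.02% of 456 lower genes held a let-7 site, against 10.5% of all 14645 genes. For the miR-294 site the shares were 25.9% of higher, 12.9% of lower and 16.7% of all genes. Among calls made without WT replicate 2, a let-7 site stood in 7 of 50 higher and 18 of 198 lower genes, and a miR-294 site in 17 and 23. UTR length moved with this, with a median of 1919 bases for higher genes, 815.5 for lower genes and 1128 for all, and its part in the shares was not tested.

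By number of let-7 sites, the median log2 fold change was 0.0086 for genes with 0 sites, 0.06 for those with 1 site and 0.095 for those with 2 or more, with 2.06%, 2.53% and 6.88% of genes called higher (270, 34 and 13 genes) and 3.23%, 1.94% and 3.17% called lower. For miR-294 sites the medians were -0.001, 0.076 and 0.146, with 1.93%, 2.79% and 5.83% called higher (235, 56 and 26 genes) and 3.26%, 2.44% and 2.24% called lower. The median UTR lengthened from 0 sites to 2 or more in both families, from 1020 to 3601 bases for let-7 and from 933 to 3888.5 for miR-294. Of 15 reported targets of the miR-290 and miR-302 families, 1 rose (Lats2, a kinase of the Hippo pathway, 1.19 ± 0.303, lost without AGO2 KO replicate 2 (0.798) or WT replicate 2 (0.95)) and 1 fell (Dkk1), and without WT replicate 2 only Dkk1 was called.

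The core pluripotency factors did not pass the test. Pou5f1 had 102 and 31.5 CPM in AGO2 KO libraries, against 108 and 217 CPM in WT libraries (-1.28 ± 0.63, adjusted p = 0.277). Nanog had 199.9 and 49.1 CPM in AGO2 KO libraries, against 108 and 310.3 CPM in WT libraries (-0.74 ± 0.72, adjusted p = 0.609). Sox2 had 172 and 39.8 CPM in AGO2 KO libraries, against 36.2 and 107 CPM in WT libraries (0.58 ± 0.59, adjusted p = 0.625). Replicates of a genotype differed widely for these genes, with AGO2 KO replicate 1 above AGO2 KO replicate 2 and WT replicate 2 above WT replicate 1. The groups overlapped for Nanog and Sox2, but not for Pou5f1, where both KO libraries lay below both WT libraries.

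Esrrb, a naive pluripotency receptor, showed the same spread, with 125 and 33.7 CPM in AGO2 KO libraries, against 44.3 and 132 CPM in WT libraries (-0.15 ± 0.64, adjusted p = 0.926). All 4 libraries thus still held RNA of stem cell genes at day 3. Of 11 core pluripotency genes tested, 2 were called, Lin28a and Trim71, both higher (0 without WT replicate 2), and of 18 naive genes 2 fell (1 without WT replicate 2). Tdh, the threonine dehydrogenase of stem cells, had 5.49 and 2.13 CPM in AGO2 KO libraries, against 56.9 and 30.7 CPM in WT libraries (-3.41 ± 0.43, adjusted p = 8.36e-04), and Tbx3, a T-box factor also used in primitive endoderm, fell by 1.33 ± 0.26 (adjusted p = 0.0106, lost without AGO2 KO replicate 1 (-1.28), AGO2 KO replicate 2 (-1.36) or WT replicate 2 (-0.71)). The formative and primed epiblast list had 1 of 16 members higher and 1 lower, with a median of 0.27 (0 and 1 without WT replicate 2). The higher one was Sall2, a zinc finger factor (1.03 ± 0.26, adjusted p = 0.0344, lost without AGO2 KO replicate 1 (1.06), AGO2 KO replicate 2 (1.04) or WT replicate 2 (0.697)). Dnmt3b, the de novo DNA methyltransferase and the lower one, had 78.3 and 72.7 CPM in AGO2 KO libraries, against 201 and 141 CPM in WT libraries (-1.17 ± 0.19, adjusted p = 0.00353). By position, Tdh (chromosome 14, 63492347 to 63509092, minus strand) lies between Gata4 and Sox7, which also fell. Whether their position has a part in these falls was not tested.

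Markers of other cell types were read beside these results. None of 28 mesenchyme and fibroblast genes was called, with summed levels of 5548 and 8460.3 CPM in AGO2 KO libraries, against 5608 and 3384 CPM in WT libraries. None of the 3 macrophage and blood genes tested was called, and Ptprc, Lyz2 and the embryonic globin Hbb-y were below the expression filter. Mesothelium markers had 2 of 10 higher, Msln (1.34 ± 0.25, lost without AGO2 KO replicate 1 (1.02) or WT replicate 2 (1.33)) and Tmem151a (1.897 ± 0.44, lost without AGO2 KO replicate 1 (1.59) or WT replicate 2 (1.605)), and 0 of 10 without WT replicate 2. Trophoblast markers had 1 higher (Cdx2, 2.03 ± 0.53, lost with any 1 library left out) and 1 lower (Plac1, -1.86 ± 0.41, lost without AGO2 KO replicate 1 (-1.63), AGO2 KO replicate 2 (-1.998) or WT replicate 2 (-1.32)) of 12, and 0 without WT replicate 2. Their part in the falls of endoderm genes was not tested.

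Several stress and signalling lists had no member called. Nodal and activin, retinoic acid, cholesterol synthesis, unfolded protein response and p53 response lists had 0 members called of 19, 21, 17, 15 and 11 tested. The BMP list had 2 of 22 lower (Bmp6, a ligand, -1.68 ± 0.33, and Bmper, a secreted BMP-binding protein, -2.29 ± 0.501), and 1 without WT replicate 2. Glycolysis and hypoxia genes had 2 of 18 lower (Ldha, lactate dehydrogenase A, -1.12 ± 0.298, and Bnip3, a mitophagy receptor induced by hypoxia, -1.802 ± 0.33), and 3 without WT replicate 2, both of these included. The interferon list had 1 of 16 higher (Irf1, a transcription factor, 1.23 ± 0.27), and 0 without WT replicate 2. Bmp6 lost its call without AGO2 KO replicate 1 (-1.28), and Bmper without AGO2 KO replicate 1 (-1.61) or WT replicate 2 (-1.79). Irf1 lost its call without AGO2 KO replicate 1 (0.93) or WT replicate 2 (0.81). Ldha lost its call without AGO2 KO replicate 1 (-0.86), AGO2 KO replicate 2 (-1.38) or WT replicate 1 (-0.69). The unfolded protein and integrated stress list summed to 3377 and 2850.3 CPM in AGO2 KO libraries, against 3279 and 5700.3 CPM in WT libraries, so WT replicate 2 stood high in it. The two-cell-like list had 4 of 12 members lower, Zscan4c (-0.83 ± 0.22, lost with any 1 library left out) and 3 Usp17l genes, of which Usp17lb had 16.1 and 13.4 CPM in AGO2 KO libraries, against 40.003 and 55.3 CPM in WT libraries (lost without AGO2 KO replicate 1 (-1.82), AGO2 KO replicate 2 (-1.55) or WT replicate 2 (-1.405)). Without WT replicate 2, 1 of the 12 was called. These genes have near-identical copies, so the counts of single members are uncertain.

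By chromosome, most medians were near 0, with a few exceptions that lay in WT replicate 2 or in the KO libraries. Chromosome 1 had 54 lower and 8 higher calls of 1104 genes and a median of -0.27. The KO libraries exceeded WT replicate 1 by 0.030 and 0.063 there and fell short of WT replicate 2 by medians of -0.48 and -0.43 (log2 of CPM + 0.5, genes of at least 5 CPM), so the shift came with WT replicate 2. Chromosome 15, which holds Ago2 and Dab2, went the other way, with KO libraries at -0.092 and -0.22 against WT replicate 1 and 0.47 and 0.37 against WT replicate 2. A part of chromosome 6, from 80 to 100 Mb, did likewise, with KO libraries at -0.0018 and -0.022 against WT replicate 1 and 0.52 and 0.58 against WT replicate 2.

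A part of chromosome 10, from 50 to 70 Mb (mm10), was higher in both KO libraries than in both WT libraries. This window was chosen after the values were seen. Of 101 genes tested there, 35 were called higher (34.7%) and 3 lower (2.97%), with a median log2 fold change of 0.71, against 23 higher (3.38%) and 17 lower of 681 genes and a median of -0.041 on the rest of the chromosome. Single libraries moved these calls too, with 6 higher and 2 lower without WT replicate 2, and 6 higher and 1 lower called with each library left out. The medians against WT replicate 1 were 0.52 and 0.55, and against WT replicate 2 0.917 and 0.92. Of the 70 genes with at least 5 CPM, 65 had a positive fold change and 60 were higher in KO in all 4 pairs of libraries. The shift went on in the next window to 72 Mb (median 0.72 over 9 genes). From 72 to 74 Mb the median was 0.197 over 3 genes, 1 of them called higher. The shift was not seen from 74 to 76 Mb (-0.31 over 26 genes). The counts for the rest of the chromosome include the genes from 70 to 74 Mb.

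Genes of unrelated roles were raised in it. Reep3, an endoplasmic reticulum protein gene, had 82.6 and 113 CPM in AGO2 KO libraries, against 44.4 and 29.8 CPM in WT libraries (1.39 ± 0.199, adjusted p = 0.00119). Gja1, the gap junction protein connexin 43, had 367 and 306 CPM in AGO2 KO libraries, against 182 and 99.4 CPM in WT libraries (1.26 ± 0.22, adjusted p = 0.00551). Jmjd1c (1.204 ± 0.204), a chromatin protein gene, and Gopc (1.06 ± 0.17), a Golgi trafficking gene, were called with each library left out as well. Srgn, Hkdc1, a hexokinase gene (-2.31 ± 0.39, lost without AGO2 KO replicate 1 (-1.99)), and Pla2g12b, a phospholipase family gene (-1.93 ± 0.44, lost without AGO2 KO replicate 1 (-1.88), AGO2 KO replicate 2 (-1.93) or WT replicate 2 (-1.85)), were the 3 lower genes within the window.

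The calls of the same fit were also counted outside this window and chromosome 1. Nothing was refitted, so scaling, spread and adjustment still included both regions, and their effect on the other calls was not tested. Among the 16489 remaining genes, 281 were called higher and 473 lower, 754 in all. Leaving out chromosome 15 and the chromosome 6 part as well left 272 higher and 451 lower among 15659 genes. Copy number was not measured here.

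**Figure D5:**
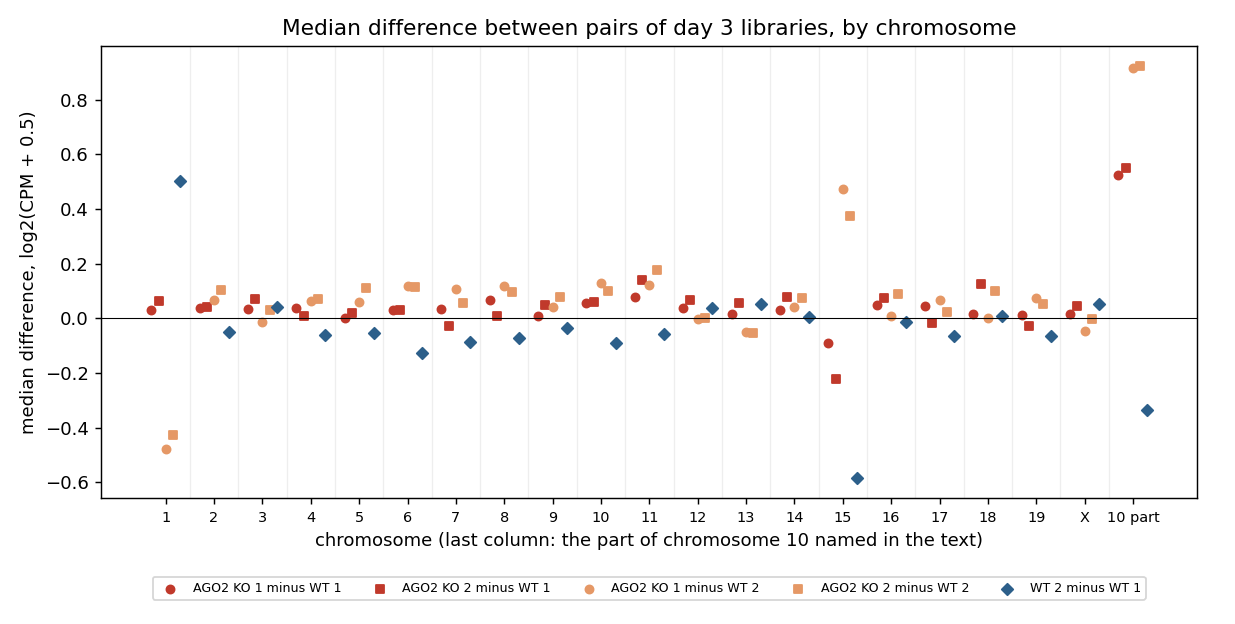
Median difference in log2(CPM + 0.5) between pairs of day 3 libraries for each chromosome, over genes of at least 5 CPM; the last column is the part of chromosome 10 named in the text. WT replicate 2 departs from WT replicate 1 on chromosomes 1 (0.501) and 15 (-0.583), whereas the chromosome 10 part is raised in both KO libraries against either WT library (0.52 to 0.92).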

How the data were processed

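The authors deposited raw read counts per gene, whole numbers for 30590 gene symbols, made with STAR 2.5.0c and featureCounts 1.4.5-p1 on mm10 per the submitters' processing notes. The annotation release and strand setting of the counting are not given in the sources used here, so overlapping, antisense and near-identical genes can share reads. Per the labels, day 1 to 4 libraries came from 1 sequencing run.

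All 16 day 1 to 4 libraries (8 groups of 2, totals of 10601574 to 27147835) were fitted together with edgeR 4.0.16 in R 4.3.3. The other days entered the estimate of the spread, the scaling and the expression filter, but not the contrast. The filter over all 16 libraries kept 17694 genes, against 15121 with the 4 day 3 libraries alone, where Apoa4 for example was not tested. TMM scaling, the default expression filter, a robust quasi-likelihood test and no covariates were used, and a call is an adjusted p (Benjamini-Hochberg) below 0.05. The SE follows from the F statistic. Same-numbered libraries did not deviate together (correlation -0.149 over genes of at least 5 CPM). The pipeline was tested on simulated counts. Positions are from GENCODE M21 (GRCm38), and each 3′ UTR is the longest annotated per gene.

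Alternatives were DESeq2 size factors, the DESeq2 1.42.0 Wald test, no filter, a 2-fold threshold, a replicate block, the 4 libraries alone and leaving out each library; a lone remaining library is taken to vary as the other groups do. Named genes are 11 fixed ones, the 15 largest rises and falls of at least 5 CPM without overlap (609 calls met this, of which 32 predicted or clone-named ones were only counted), the 10 smallest p-values per direction, up to 4 called members per list, and members of lists of up to 13 genes; others named beside a count were chosen after their values were seen. Members, lists and tests were chosen with earlier results of these data known, and the UTR sites and the chromosome 10 window after the data were seen. A few list members and 1 promoter word are not reported here, and list counts leave them out. In the whole-series table, 7 columns were used in no step.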

Additional observations from a re-analysis of the deposited data

How the results depend on the processing

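The number of genes called moved with the method and with single libraries. It was 1345 with the DESeq2 Wald test (619 higher, 726 lower) and 2035 without an expression filter (967 higher, 1068 lower, 28953 genes tested), of which 806 and 823 were among the 854. A fit of the 4 day 3 libraries alone called 35 genes (2 higher, 33 lower). Calls of at least 2-fold numbered 579, with 154 higher and 425 lower. Leaving out 1 library gave 271 to 2643 calls, 52 to 1450 higher and 201 to 1193 lower; these fits also test more genes, because the filter adapts to the smaller group. DESeq2 size factors gave 858 calls. Ago2 lost its call in the 4 libraries alone (-1.33, adjusted p = 0.226), and over the left-out libraries its log2 fold change ranged from -1.65 to -0.899. The primitive endoderm and XEN markers had 7 members lower in the 4 libraries alone and 10 to 12 with a library left out.

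With the replicate number as a block in the fit of 16 libraries, 767 genes were called (285 higher, 482 lower), 746 of them shared. With the replicate block in the 4 libraries alone, 17 were called (0 higher, 17 lower; 1403 genes at an unadjusted p below 0.05), Ago2 was not (-1.32, adjusted p = 0.391) and 5 of the endoderm markers were lower. The correlation of -0.149 between same-numbered libraries led to a crossed pairing chosen after seeing the data, which called 156 genes (25 higher, 131 lower). Also added after seeing the data was a count of the 854 calls by region, with no refit. Outside chromosome 1 and the chromosome 10 window lay 754 of them, and outside chromosome 15 and the chromosome 6 part as well 723.

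None of the 854 calls turned sign in any alternative that gave it a value (818 in the fits of the 4 libraries alone). The alternatives reuse the libraries that made the calls, so few turns could occur and this is no separate support. Among named genes, signs turned for some that did not pass the test. With a library left out their log2 fold changes ranged as follows, namely Ascl2 -0.76 to 0.61, Bnc1 -0.41 to 0.78, Boc -0.17 to 0.23, Ccnd2 -0.49 to 0.499, Ccng1 -0.024 to 0.81, Cd200 -0.62 to 0.77, Cd68 -0.011 to 0.56, Cdkn1a -0.049 to 0.86, Dhh -1.01 to 0.47, Dppa4 -0.22 to 0.15, Eda2r -0.042 to 0.83, Esrrb -1.38 to 0.88, Fcgrt -0.21 to 1.57, Foxa1 -0.13 to 0.21, Foxa2 -0.699 to 0.38, Gata2 -0.26 to 1.21, Gata5 -1.49 to 0.012, Hhip -0.18 to 0.93, Lrrn4 -0.36 to 0.28, Nanog -2.08 to 0.24, Pdgfc -0.45 to 0.78, Pdgfd -0.62 to 0.018, Phlda3 -0.22 to 0.24, Sall4 -0.24 to 0.46, Sesn1 -0.59 to 0.072, Sox2 -0.83 to 1.59, Stab1 -1.602 to 0.66, Tdgf1 -2.04 to 0.0036, Tfap2c -0.98 to 1.32, Tfrc -0.55 to 0.37, Upk3b -0.38 to 1.03, Vldlr -1.69 to 0.53. Boc was at -0.0082 and -0.010 with the block and the crossed pairing in the 4 libraries alone, Bnc1 at -0.0085 in the 4 libraries alone, and Foxa1 at -9.65e-04 with DESeq2 size factors, -0.018 in the 4 libraries alone, -0.014 with the block there and -0.018 with the crossed pairing. The causes were not tested.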
